A study of Mus musculus with 5 samples.

Results

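Neurotrophic ligands and their receptors were described here as 8 genes, taken by name from a count table of 47729 mouse genes: the ligand genes Bdnf, Ntf3 and Gdnf, the Trk receptor genes Ntrk2 and Ntrk3, the shared receptor genes Ngfr and Sort1, and the GDNF receptor gene Gfra1. All 8 were found, and all 8 passed the filter on low counts. The tissue was the right brain hemisphere, and the mice were males of the inbred strain C57BL/6 at 5 months of age. The 5 samples carry no treatment or genetic change in their labels and form 1 group, with 1 library each, so the comparisons are between genes within a library and between libraries. The labels do not say that the samples are separate animals, so the p-values below speak of differences among these libraries, which may be technical.

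Neurotrophins are secreted as precursors that proteases cut to the mature factor. The mature factor binds a Trk receptor tyrosine kinase (BDNF binds TrkB, encoded by Ntrk2, and NT-3, encoded by Ntf3, prefers TrkC, encoded by Ntrk3) and drives survival, growth and synaptic strength, whereas uncut precursors bind the p75 receptor (Ngfr) together with sortilin (Sort1). GDNF, a ligand of another family, binds GFRalpha1 (Gfra1), a receptor anchored to the membrane without a kinase of its own, which signals through the kinase Ret or through NCAM. In the adult forebrain BDNF is made mainly by excitatory neurons, and its gene is induced by activity. TrkB is made by neurons as a kinase and by astrocytes chiefly as a short form without the kinase, and counts per gene do not separate these forms.

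Depth ran from 13184234 to 15570064 counts per library. Levels are given as RPKM (counts divided by gene length and by the library's total count), and values after ± are the SD over the 5 libraries (n = 5). Reads carry no molecular identifiers, so intervals cover counting error only. Markers of neurons (7 of 7 genes detected, summed level 1416 to 1539 RPKM), astrocytes (6 of 6, 760.4 to 822 RPKM) and mature oligodendrocytes (6 of 6, 854 to 1044 RPKM) were present, as a brain label requires. The libraries were less alike in genes of blood, some brain regions and other tissue. All 5 blood genes were called more variable than genes of like abundance, with sums of 62.2 to 236 RPKM, and the striatum list summed to 328 RPKM in library 1 against 264 to 292 in the others. The brainstem list summed to 2.78, 8.13, 4.71, 9.32 and 1.80 RPKM in libraries 1 to 5, the cerebellar granule cell gene Gabra6 stood at 1.65 RPKM in library 4 and at most at 0.0300 RPKM in the others, and the liver gene Alb had 245 counts in library 1 against 0 to 27 in the others. In bulk tissue, fewer cells of a type and less RNA per cell cannot be told apart.

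The 8 genes spanned a wide range of levels and kept nearly the same order in every library. From the highest mean to the lowest they were Sort1 at 83.9 ± 3.0 RPKM, Ntrk2 at 59.2 ± 2.05, Gfra1 at 10.6 ± 0.300, Ntrk3 at 8.44 ± 0.246, Bdnf at 5.66 ± 0.510, Ngfr at 1.46 ± 0.348, Ntf3 at 1.01 ± 0.159 and Gdnf at 0.268 ± 0.0279. The membrane receptors thus stood above all 3 ligands, with the exception of Ngfr, which lay below Bdnf. Of the 28 pairs of these genes, 27 had the same order in all 5 libraries, and in the same 27 the ranges did not overlap. Flipping the signs of the 5 log2 ratios of a pair in every way (two-sided exact test) gave each of the 27 p = 0.0625, or 0.0648 adjusted over the 28 pairs. This is the smallest p that 5 libraries allow, so no pair can pass 0.05. The exception was Ngfr against Ntf3, neighbours in the order, with Ngfr higher in 4 of 5 libraries (log2 ratio of RPKM plus 0.1 of 0.48 ± 0.43, exact p = 0.125, adjusted 0.125).

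**Figure D1:**
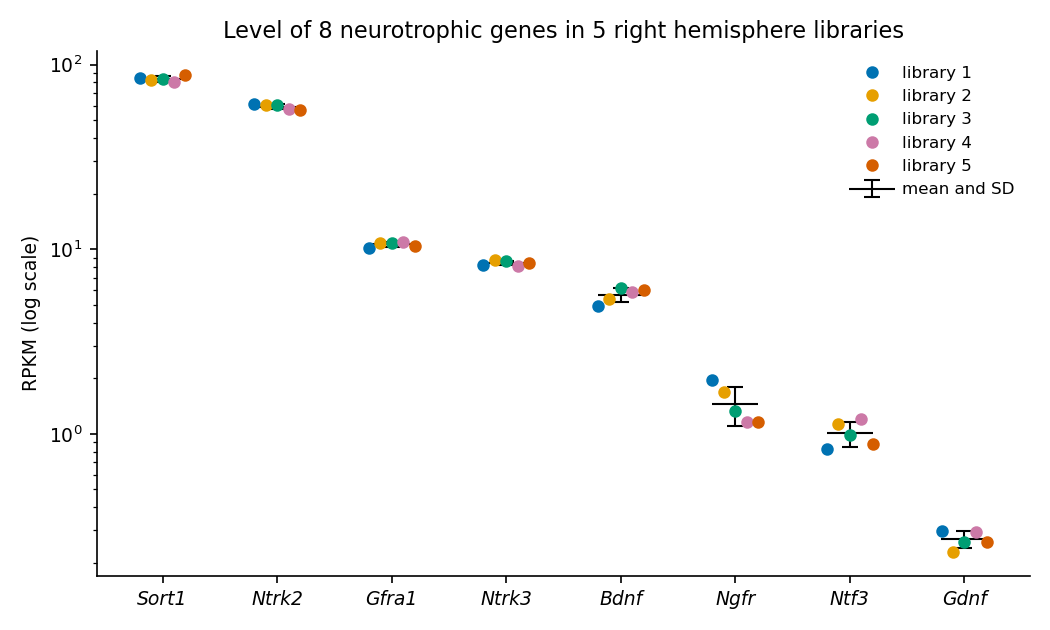
Level of each of the 8 genes in RPKM (vertical axis, log scale), with 1 point per library and the mean and SD over 5 libraries as bars. Points of neighbouring genes are separate at every step except Ngfr and Ntf3, whose ranges (1.16 to 1.95 and 0.828 to 1.20 RPKM) overlap.

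Among the ligands, Bdnf (ENSMUSG00000048482, GRCm38 chromosome 2, 109674700 to 109727007, plus strand), which encodes brain-derived neurotrophic factor, was the most abundant. It stood at 4.90, 5.38, 6.13, 5.88 and 6.01 RPKM in libraries 1 to 5, from 408 to 569 counts. Libraries 1 and 2 were the lowest and libraries 3, 4 and 5 lay close together. Among the 28276 genes with at least 1 count, 73.4% had a lower mean RPKM than Bdnf.

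Bdnf is transcribed from several start sites, each followed by its own first exon, and the count per gene sums them. The RefSeq table (build GRCm38.p6) holds start windows, each from 250 bases before a start site to 50 bases after it, for 6 of the 8 genes, and 7 of its 14 windows for these genes belong to Bdnf. A cyclic AMP response element (CRE) is bound by CREB, through which neuronal activity is known to act on Bdnf. The full letters TGACGTCA were in none of the 14 windows, against 1.79% of all 32851 windows in the table. The related letters TCACGTCA (searched on both strands, the other reading TGACGTGA) were in 1 Bdnf window, 38 bases upstream of its start site, and in 0.441% of all windows. The shorter letters TCGTG (on the other strand CACGA) are the core read by bHLH-PAS factors such as NPAS4. They were in 3 of the 7 Bdnf windows, in the 1 window of Gfra1 and in 16% of all windows. None of the TCGTG matches overlaps the TCACGTCA match. The window with the match is shown beside that of the first annotated start site, which lacks it, with the match in capitals, both on the plus strand and 5′ to 3′. Each window shown also holds 2 TCGTG matches, which are not marked. A match describes the letters only.
Bdnf chr2:109692186-109692485: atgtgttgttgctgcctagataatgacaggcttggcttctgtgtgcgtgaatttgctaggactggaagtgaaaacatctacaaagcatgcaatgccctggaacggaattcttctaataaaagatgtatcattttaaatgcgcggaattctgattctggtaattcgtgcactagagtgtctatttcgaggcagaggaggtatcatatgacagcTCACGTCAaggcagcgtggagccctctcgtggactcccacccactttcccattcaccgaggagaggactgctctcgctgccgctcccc
Bdnf chr2:109674450-109674749: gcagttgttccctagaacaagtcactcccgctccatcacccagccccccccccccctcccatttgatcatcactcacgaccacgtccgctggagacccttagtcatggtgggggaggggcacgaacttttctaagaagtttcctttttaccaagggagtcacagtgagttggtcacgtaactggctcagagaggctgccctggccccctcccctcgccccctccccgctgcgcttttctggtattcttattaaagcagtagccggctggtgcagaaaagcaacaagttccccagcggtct

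Ntf3 (ENSMUSG00000049107, chromosome 6, 126101412 to 126166910, minus strand), which encodes neurotrophin-3, stood at 0.828, 1.14, 0.986, 1.20 and 0.885 RPKM in libraries 1 to 5. These values rest on 19, 29, 24, 32 and 20 counts, and every exact 95% Poisson interval overlapped the others, from 0.499 to 1.29 RPKM in library 1 to 0.820 to 1.69 RPKM in library 4. Gdnf (ENSMUSG00000022144, chromosome 15, 7810846 to 7837575, plus strand), which encodes glial cell line-derived neurotrophic factor, was the lowest at 0.298, 0.230, 0.261, 0.293 and 0.259 RPKM. It had 12 to 16 counts per library, and every exact 95% Poisson interval overlapped the others, so small differences between libraries would not show.

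Bdnf exceeded Ntf3 by 5.23-fold (log2 ratio 2.39 ± 0.21, higher in 5 of 5 libraries), and on counts without length the log2 ratio was 4.28. Among the 4 GDNF family ligands, Nrtn (neurturin) led with 3.10 ± 0.536 RPKM or 72.2% ± 5.50 of the sum, Pspn (persephin) made up 15.8% ± 7.46 on 25 counts in all, and Gdnf made up 6.34% ± 1.10 (18.9% on counts without length). The families were compared after the values were seen.

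**Figure D2:**
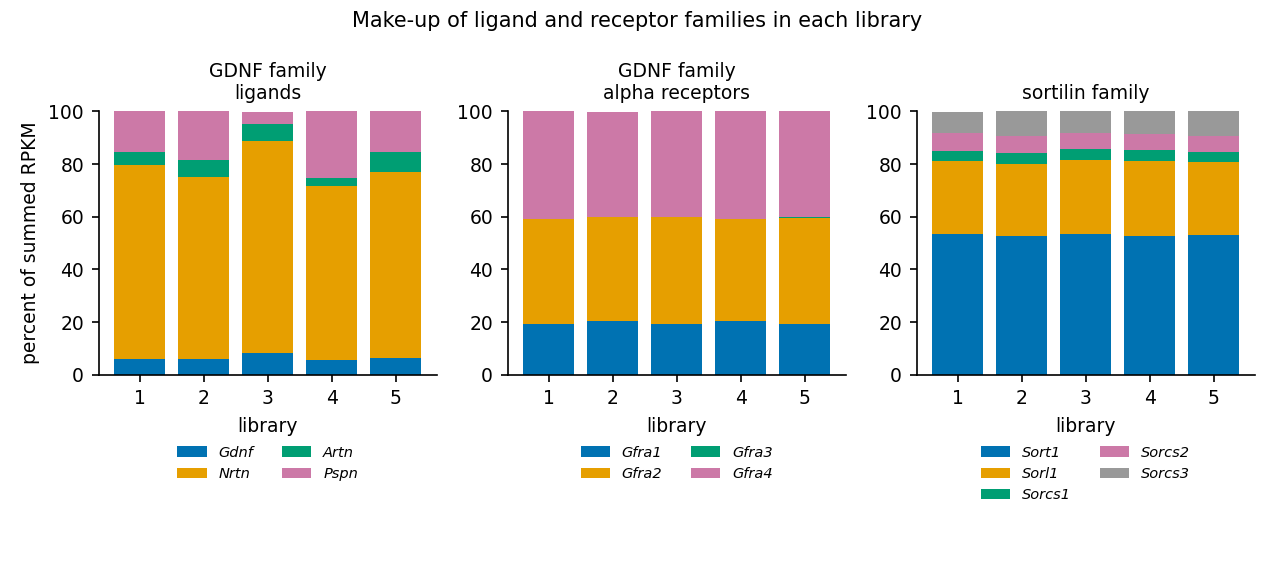
Percent of the summed RPKM of each ligand or receptor family taken by each gene (vertical axis), with 1 stacked bar per library. Sort1 takes 52.7% to 53.4% of the sortilin family, while the shares of the GDNF family ligands differ most between libraries (Pspn 4.70% to 25.5%, Nrtn 66.0% to 80.6%).

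Of the Trk receptor genes among the 8, Ntrk2 (ENSMUSG00000055254, chromosome 13, 58806569 to 59133970, plus strand), which encodes TrkB, was the higher. Its values were 61.5, 60.1, 60.2, 57.5 and 56.6 RPKM in libraries 1 to 5, on 10300 to 12357 counts. The libraries differed by 1.09-fold from lowest to highest on the scale of log2 CPM (counts scaled to the library's TMM-adjusted total, with a prior count of 2, as for all folds between libraries here). Ntrk3 (ENSMUSG00000059146, chromosome 7, 78175959 to 78738012, minus strand), which encodes TrkC, stood at 8.25, 8.73, 8.64, 8.16 and 8.42 RPKM, with a difference of 1.06-fold between libraries. Ntrk2 was highest in library 1 and lowest in library 5, whereas Ntrk3 was highest in library 2 and lowest in library 4.

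Ntrk2 exceeded Ntrk3 by 6.94-fold, with log2 ratios from 2.73 to 2.88 in the 5 libraries. It stood 10.3-fold above the gene of its ligand, Bdnf (log2 ratio 3.37 ± 0.17), and Ntrk3 stood 7.78-fold above Ntf3 (2.96 ± 0.21), both in 5 of 5 libraries. The size of these differences rests on gene length. The length behind the deposited values was 13806 bases for Ntrk2 and 30170 for Ntrk3, whereas the union of annotated exons in the GENCODE annotation used here is 19292 bases for Ntrk2. With that length Ntrk2 had a mean of 42.4 RPKM and a log2 ratio to Ntrk3 of 2.31, and on counts without length the ratio was 1.68. Without length the log2 ratio was 4.54 for Ntrk2 to Bdnf and 7.14 for Ntrk3 to Ntf3.

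The receptor of precursors, Sort1 (ENSMUSG00000068747, chromosome 3, 108284082 to 108361511, plus strand), which encodes sortilin, a sorting receptor that also carries BDNF inside the cell, was the highest of the 8. It had 84.7, 82.4, 84.1, 80.1 and 88.2 RPKM in libraries 1 to 5 and 98.5% of detected genes below it. Sort1 made up 53.1% ± 0.317 of the sortilin family, followed by Sorl1 at 27.8% ± 0.472 and Sorcs3 at 8.61% ± 0.588. Without length Sort1 made up 46.9%, and Sorcs2 (6432 counts over the 5 libraries) lay above Sorcs3 (5456). The log2 ratio of Sort1 to Ntrk2 was 0.50 ± 0.078, with Sort1 higher in 5 of 5 libraries, but on counts without length it turned to -0.36.

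Ngfr (ENSMUSG00000000120, chromosome 11, 95568818 to 95587735, minus strand), which encodes the p75 receptor and in the adult brain marks cholinergic neurons of the basal forebrain, differed most between libraries among the 8. It stood at 1.95, 1.68, 1.33, 1.16 and 1.17 RPKM in libraries 1 to 5, on 90, 86, 65, 62 and 53 counts. Libraries 1 and 2 were the highest and libraries 4 and 5 the lowest, 1.67-fold apart from top to bottom. The exact 95% Poisson intervals of library 1 (1.57 to 2.4 RPKM) and library 4 (0.886 to 1.48 RPKM) did not overlap. They are the highest and the lowest library, picked by their values, and the intervals cover counting error only. Ngfr was not called more variable than genes of like abundance (edgeR adjusted p = 0.931). Sort1 exceeded Ngfr by 55-fold, and the log2 ratio ran from 5.37 in library 1 to 6.12 in library 5.

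Markers of cholinergic neurons did not share this order throughout. All 5 of 5 listed genes were detected, with summed levels of 8.01, 6.51, 6.50, 7.33 and 5.48 RPKM in libraries 1 to 5. Chat, the enzyme of acetylcholine synthesis, had 2.13, 1.55, 1.43, 1.78 and 1.78 RPKM, highest in library 1 like Ngfr, but higher in libraries 4 and 5 than in library 2, unlike Ngfr. The part of cell make-up in the spread of Ngfr was not tested.

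Gfra1 (ENSMUSG00000025089, chromosome 19, 58235604 to 58455909, minus strand), the receptor of GDNF, was among the steadiest of the 8, at 10.2, 10.7, 10.8, 10.9 and 10.4 RPKM in libraries 1 to 5. It was 29.1-fold above its ligand Gdnf (log2 ratio 4.86 ± 0.13, higher in 5 of 5 libraries). Gfra1 made up 19.7% ± 0.644 of the summed RPKM of the 4 GFRalpha genes, below Gfra4 (40.4% ± 0.327), the receptor of persephin, and Gfra2 (39.8% ± 0.739), the receptor of neurturin, while Gfra3 had 4 counts in all. Without length this order changes: Gfra1 made up 32.3%, on 4143 counts over the 5 libraries, between Gfra2 with 5290 and Gfra4 with 3361. The log2 ratio of Gfra1 to Ntrk3, its neighbour in the order, was 0.33 ± 0.049 with length and -2.13 without.

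Ret, the kinase through which Gfra1 signals, differed more between libraries than Gfra1 itself, at 2.87, 3.90, 3.21, 4.13 and 2.76 RPKM. Libraries 4 and 2 were the highest and library 5 the lowest (1.5-fold, unadjusted p = 0.00368, adjusted p = 0.333 by edgeR). The brainstem list had the same order of libraries, with 4 and 2 the highest, then 3, 1 and 5. Its part in the values of Ret was not tested. Ncam1, the other partner of Gfra1, stood at 42.9 ± 2.24 RPKM.

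The spread of each gene between libraries was set against that of genes of like abundance. The edgeR quasi-likelihood fit gives each gene a dispersion, which was divided by the trend over all 14770 genes tested and compared with an F distribution. Of all genes tested, 0.305% were more variable than the trend at an adjusted p of 0.05 (45 genes) and 0% less variable. None of the 8 neurotrophic genes was called in either direction with edgeR, and none had an unadjusted p under 0.05, against 5.43% of all genes (more variable) and 5% (less variable). DESeq2 and limma also called 0 of the 8. The median fold between the highest and the lowest library was 1.17 for the 8 genes and 1.19 for all genes tested.

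The 8 genes nevertheless took different places in that distribution. Ngfr had a dispersion 2.93 times the trend, more than 94.0% of genes tested (unadjusted p = 0.0558, adjusted p = 0.931 by edgeR), and without library 1 the ratio was 1.48. Bdnf had 2.29 times the trend, more than 89.0% of genes (unadjusted p = 0.107, adjusted p = 0.976 by edgeR). Without library 1 its ratio was 1.18. At the other end lay Gdnf at 0.181 times the trend, Gfra1 at 0.261 and Ntrk3 at 0.402, while Ntf3 (0.556), Ntrk2 (0.858) and Sort1 (0.930) were nearer to it. Bdnf differed by 1.25-fold between libraries, where the 2890 genes with a mean count within 1.5 times of its own had a median of 1.15-fold, and 86.6% of them had a smaller difference. Gfra1 differed by 1.06-fold, and 10.2% of its 2718 genes of like abundance had a smaller difference.

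**Figure D3:**
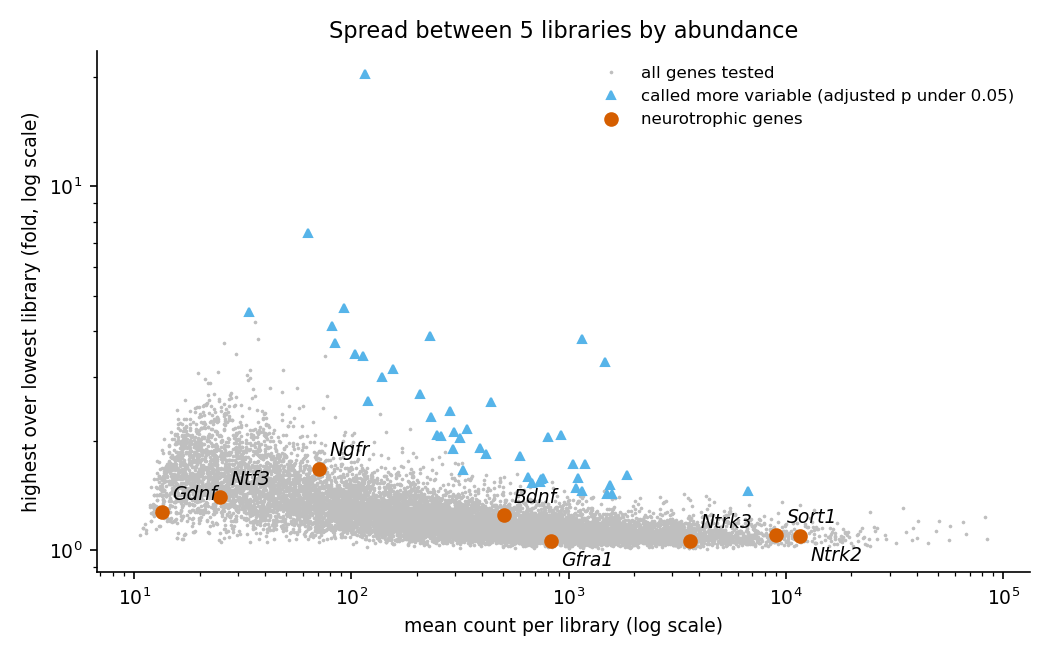
Fold between the highest and the lowest of the 5 libraries (vertical axis, log scale) against the mean count per library (horizontal axis, log scale) for all 14770 genes tested in grey, the 45 called more variable as triangles and the 8 neurotrophic genes as labelled circles. The 8 circles lie within the grey cloud, Ngfr (1.67-fold) and Bdnf (1.25-fold) toward its upper edge and Gfra1 (1.06-fold) toward its lower edge.

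Genes of the wider pathway were taken from 6 lists by role. Of 81 listed symbols 80 were matched and 74 tested, with a median difference of 1.16-fold between libraries. Npas4 alone of the 74 was called more variable by edgeR, against 0.305% of all genes tested, and none was called less variable. Of the adaptors and signalling enzymes, 0 of 31 were called in either direction by edgeR, where 0.305% of all genes were called, and 2 had an unadjusted p under 0.05, both less variable. Their median was 1.10-fold against 1.19-fold for all genes tested, with a range from 1.03-fold to 1.55-fold. These 2 medians are not at like abundance, since the median level was 15.0 RPKM for the adaptors and 5.80 for all genes. Set against the abundance trend, the median ratio was 0.548 for the adaptors and 0.875 for all genes. Bex3, which binds p75, stood at 140.2 ± 2.42 RPKM (1.03-fold between libraries) and Maged1, another p75 partner, at 119 ± 3.33. Of the receptors and co-receptors beyond the 8, none of 12 tested was called. The p75 partner Lingo1 had 71.5 ± 3.69 RPKM and Sorl1 44.0 ± 1.30.

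Of the genes that process precursors, 0 of 9 were called by edgeR, where 0.305% of all genes tested were called. Of these 9, 0 had an unadjusted p under 0.05, against 5.43% of all genes (more variable) and 5% (less variable). Their median was 1.19-fold, as over all genes tested, and the range ran to 1.87-fold. These medians too are not at like abundance, since the median level was 7.58 RPKM for the 9 genes and 5.80 for all genes. Relative to the abundance trend, the 9 genes had the higher median ratio, 1.405 against 0.875 for all genes. Cpe, a carboxypeptidase that also sorts precursors to secretory granules, stood at 1080.1 ± 24.1 RPKM, the convertase genes Pcsk2 and Pcsk1 at 48.3 ± 3.07 and 15.0 ± 0.610, and Furin, the general convertase of the secretory pathway, at 4.82 ± 0.276. Of the ligands beyond the 8, none of 4 tested was called, against the same 0.305% of all genes. Manf, a secreted factor of the endoplasmic reticulum, led them at 10.04 ± 0.379 RPKM.

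Genes that act on Bdnf transcription held the only call, 1 of 8 tested, against 0.305% of all genes. Of these 8, 3 had an unadjusted p under 0.05 by edgeR, all more variable, against 5.43% of all genes. Npas4 (chromosome 19, 4984355 to 4990316), an activity-induced transcription factor that binds Bdnf promoters, stood at 7.89, 7.18, 3.8, 4.27 and 4.74 RPKM in libraries 1 to 5 (2.06-fold, edgeR adjusted p = 0.0116). Libraries 1 and 2 were apart from the other three, in the direction opposite to Bdnf, which was lowest in the same libraries. The dispersion was 17.1 times the trend. The call was lost without library 1 (12.4 times, adjusted p = 0.102), with a non-robust prior (16.8 times, 0.0545) and with limma on recomputed RPKM (20.8 times, 0.311) or on deposited RPKM (5.68 times, 0.312). Bhlhe40, a transcriptional repressor of the circadian and activity programmes, stood at 21.5, 21.5, 28.2, 26.0 and 29.8 RPKM, with the same libraries low as for Bdnf (1.4-fold). It missed the threshold at an adjusted p of 0.0520 by edgeR. It passed without library 4 (0.0168) and with no filter on low counts (5.33e-06), and DESeq2 called it a dispersion outlier. The fit with no filter took the trend as known, without spread around it, and its ratio to the trend was no higher (10.6 against 11.5 in the main fit). Mef2c and Crtc1, a CREB coactivator, had 31.1 ± 2.52 and 20.6 ± 0.929 RPKM. Creb1 itself stood at 5.18 ± 0.340.

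Of 10 genes induced by neurotrophin signalling, most of them also induced by neuronal activity, 0 were called and 5 had an unadjusted p under 0.05 by edgeR, against 0.305% and 5.43% of all genes tested. These were Homer1 (1.37-fold, adjusted p = 0.123), Fos (1.49-fold, 0.333), Egr1 (1.25-fold, 0.381), Dusp6 (1.29-fold, 0.654) and Arc (1.28-fold, 0.679). Homer1, a postsynaptic scaffold gene, stood at 17.0, 15.8, 19.9, 19.7 and 21.4 RPKM and Egr1 at 53.6, 51.8, 63.8, 59.9 and 63.4, both lower in libraries 1 and 2 than in any other, as Bdnf was. Fos was low in library 1 alone (9.37 against 12.2 to 14.2 RPKM). Vgf, a secreted granin, had the highest mean of the list at 103.9 ± 6.79 RPKM. The peptide gene Npy stood at 76.7 ± 5.58 RPKM. In Vgf and Npy library 2 was the lowest, but library 1 lay above library 3.

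**Figure D4:**
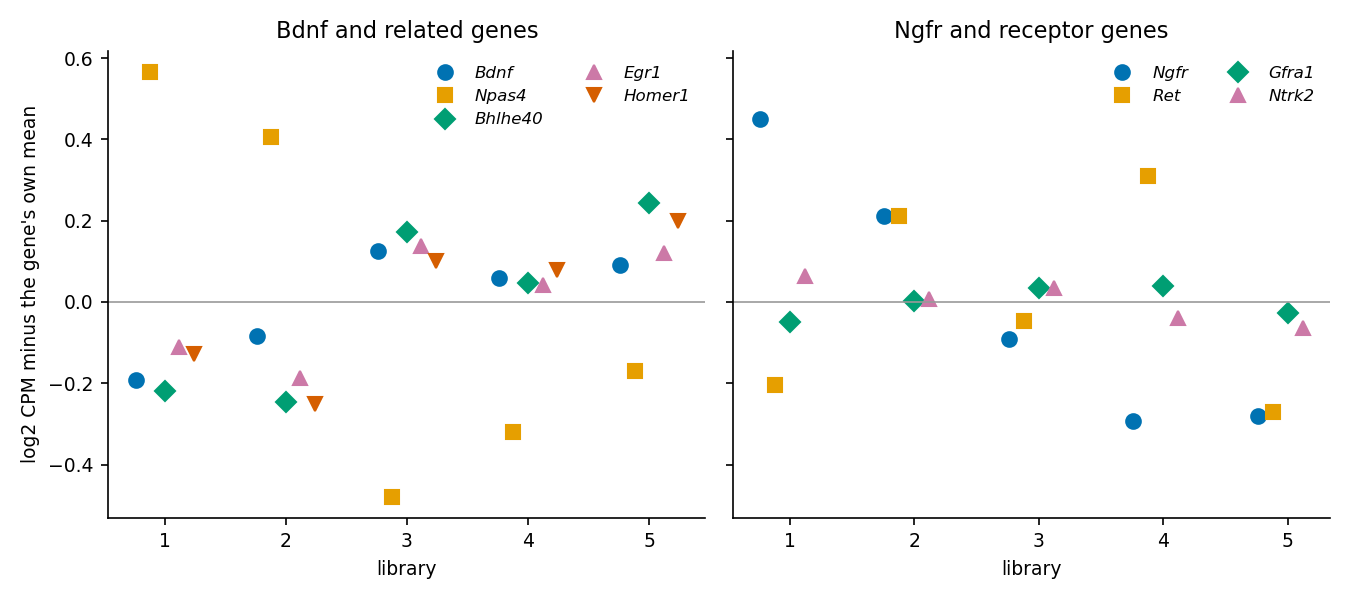
Difference of log2 CPM from each gene's own mean over the 5 libraries (vertical axis) in each library (horizontal axis, points set side by side), for Bdnf with 4 related genes on the left and for Ngfr with 3 receptor genes on the right. Bdnf lies below 0 in libraries 1 and 2 (-0.19 and -0.085) where Npas4 lies above it (0.57 and 0.405), and Ngfr is highest in library 1 (0.45).

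Likeness to Bdnf and to Ngfr was measured as the root mean square difference of these log2 deviations over the 5 libraries, among genes with a mean count of at least 100. Closest to Bdnf were Sc5d, an enzyme of cholesterol synthesis (0.014), 1810055G02Rik (0.015) and Nr2e1, a nuclear receptor of neural stem cells (0.017), out of 10952 genes. Sc5d stood at 18.4, 20.3, 22.9, 21.9 and 22.1 RPKM. Closest to Ngfr were the ribosomal protein gene Rps7 (0.071), Zbtb7c (0.072) and the mitochondrial transfer RNA gene mt-Th (0.082), out of 10953 genes. Rps7 shares 51.1% of its sequence words with other genes and is uncertain. None of these 6 genes was called more variable (adjusted p from 0.845 to 0.995 by edgeR).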

How the data were processed

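Messenger RNA libraries were made with an Illumina mRNA kit, per the labels' protocols. CASAVA 1.7, STAR 2.4.1d and featureCounts 1.4.6-p4 with GRCm38 are named, per the submitters' processing notes; the sources used here do not give the annotation release, the strand setting or how reads with several matches were treated. Raw counts per gene were deposited. The deposited RPKM values matched these counts divided by library totals taken in turn down the table, a step inferred from the values: on 7363 genes the implied gene length varied by 0.00178% (median) under that rule and by 10.7% with own totals. RPKM was therefore recomputed from counts, own totals and the recovered length.

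Symbols and positions came from GENCODE M21 (GRCm38; 47224 genes matched). Exons of Bdnf, Sort1 and Gfra1 overlap an opposite-strand gene, which had a mean of at most 1.4 counts for Sort1 and Gfra1. The gene that overlaps Bdnf, over 896 bases, is absent from the counts. Since the strand setting is not given, reads from it may have been counted for Bdnf. The 8 genes share at most 0.735% of their 50-base sequence words with other genes.

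The spread test used edgeR 4.0.16 (R 4.3.3) with an intercept-only design, its default expression filter, TMM scaling and a robust legacy quasi-likelihood fit, with Benjamini-Hochberg adjustment over all genes tested and a threshold of 0.05. On simulated counts for 14770 genes, 52.2% of genes changed 1.5-fold in 1 library, 77.6% changed 2-fold and 97% changed 4-fold were called, with 5 false calls. Every simulated gene had the dispersion of the trend, without spread around it, so these shares may be too high for the real counts. They pool all abundances and do not give the power for Gdnf, Ntf3 and Ngfr, with mean counts of 13.4, 24.8 and 71.2. Alternatives used DESeq2 1.42.0 and limma 3.58.1. Libraries are numbered in accession order, which only names them.

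The 8 genes and all lists were chosen with earlier results of these data known. Named are the 8, and the 3 most abundant and all called genes of each pathway list. The 3 genes most like Bdnf and Ngfr are named too. Other family members, Gabra6, Alb, Chat, Ret, Creb1 and Furin were named after their values were seen, as were the motifs. The same holds for the 5 induced genes. Some genes that the rule takes are not reported here.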

Additional observations from a re-analysis of the deposited data

Results flagged for a closer look

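Of 55 sets of 5 values, 3 had 1 library set apart from the rest by more than 0.71 of the whole range (Dixon's test), and chance flags about 1 set in 20. The log2 ratio of Sort1 to Ntrk2 was 0.64 in library 5 against 0.45 to 0.48 in the others, where Sort1 had its highest and Ntrk2 its lowest value. The log2 ratio of Gfra1 to Ntrk3 was 0.41 in library 4 against 0.30 to 0.32 in the others. Crtc1, the CREB coactivator gene, stood at 22.2 RPKM in library 1 against 20.0 to 20.4 in the others.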

How the results depend on the processing

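The count of neurotrophic genes called more variable was 0 in all 12 alternatives, and 27 or 28 pairs kept 1 order in all 11. The number of genes called over the whole table was 249 with no low-count filter, 101 with DESeq2 dispersion outliers, 19 with a non-robust prior, 10 with limma on recomputed RPKM and 27 with limma on deposited RPKM, and 18 to 44 without any 1 library (18 without library 5, 26 without library 3). Related pathway genes called numbered 6 with no low-count filter, 3 with DESeq2, 0 with a non-robust prior, 0 with limma on recomputed or deposited RPKM, and 0 to 2 without any 1 library (0 without library 1, 2 without library 4). The ratio to the trend crossed 1, with no call, for Bdnf (0.601), Ntrk2 (1.15), Gfra1 (1.01) and Bhlhe40 (0.855) with limma on deposited RPKM, for Ntf3 (1.14) with limma on recomputed RPKM, and when 1 library was left out for Ntrk2 (0.701 to 1.09, the highest without library 2) and Sort1 (0.636 to 1.34, the highest without library 1). On counts without length the log2 ratio turned to -0.36 for Sort1 to Ntrk2 and -2.13 for Gfra1 to Ntrk3, by construction of the length. Other causes were not tested. No paired analysis was possible because all 5 libraries form 1 group. Depth limits Gdnf and Ntf3, with 67 and 124 counts in all. Alternatives for family shares were chosen after seeing the data; the members' shares moved by less than 1 SD in 20 of 24.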
